A study of Mus musculus with 12 samples.

Results

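The nuclear genes of the mitochondrial respiratory chain and ATP synthase were followed in the injured spinal cord of mice that lack either interleukin-1 alpha or interleukin-1 beta. Members were all genes whose symbol on the array platform starts with Nduf, Uqcr, Atp5 or Cox4 to Cox8, plus Sdha, Sdhb, Sdhc and Sdhd, and 89 of the 19938 genes measured met this rule. They comprise 41 genes of complex I (NADH dehydrogenase), 4 of complex II (succinate dehydrogenase), 8 of complex III (cytochrome bc1), 19 of complex IV (cytochrome c oxidase) and 17 of complex V (ATP synthase). The symbol rule takes in more than structural subunits. Of the complex I genes, 7 are Ndufaf assembly factors, and Cox7a2l encodes a factor that joins complexes III and IV. Ndufa4 and Ndufa4l2 were counted with complex IV, where the Ndufa4 protein is now placed. No gene of the mitochondrial genome was included.

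Complexes I and II feed electrons from NADH and succinate into ubiquinone, complex III passes them to cytochrome c and complex IV reduces oxygen. The proton gradient made by complexes I, III and IV drives ATP synthesis by complex V. Neurons rely heavily on this pathway, and loss of mitochondrial function is a well-known early event after spinal cord contusion. Several complex IV subunits exist as a form found in most tissues and a form restricted to heart and skeletal muscle, testis or lung.

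The study compared Il1a KO mice, Il1b KO mice and wild-type C57BL/6 mice, all on a C57BL/6 background and aged 8 to 12 weeks. Every mouse received a contusion of 50 kdyn from an Infinite Horizon impactor, and RNA came from 6 mm of cord centred on the lesion, taken after 24 h. Each group has 4 Affymetrix whole-transcript arrays, called biological replicates, and the labels name neither animals nor sex. There was no uninjured group, so each difference is between injured cords. The segment is bulk tissue, in which fewer cells of a type and less RNA per cell cannot be told apart.

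Promoters are shown for the genes on which the comparisons turn: Ndufaf1, the single member to pass a test, and 4 with the smallest adjusted p in the Il1b KO comparison (Cox6a1, Uqcrh, Ndufa11 and Ndufb2). Each line gives the 250 bases before the gene start that the RefSeq promoter table uses, 5′ to 3′ on the gene's strand, on GRCm38.p6. For Ndufaf1 the last 5 bases lie inside the gene's RefSeq span. Capitals mark matches, on either strand, to the core of the nuclear respiratory factor 1 site (GCATGCGC), the ETS site bound by GABP (CCGGAAG) and the YY1 site (AAGATGGC), 3 motifs known from promoters of respiratory genes.
Ndufaf1 chr2:119662835-119663084, minus strand: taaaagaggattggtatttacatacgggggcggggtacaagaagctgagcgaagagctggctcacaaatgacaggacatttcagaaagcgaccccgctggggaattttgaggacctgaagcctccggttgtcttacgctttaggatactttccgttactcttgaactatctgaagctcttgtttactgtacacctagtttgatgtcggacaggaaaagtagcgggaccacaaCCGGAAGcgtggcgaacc
Cox6a1 chr5:115348959-115349208, minus strand: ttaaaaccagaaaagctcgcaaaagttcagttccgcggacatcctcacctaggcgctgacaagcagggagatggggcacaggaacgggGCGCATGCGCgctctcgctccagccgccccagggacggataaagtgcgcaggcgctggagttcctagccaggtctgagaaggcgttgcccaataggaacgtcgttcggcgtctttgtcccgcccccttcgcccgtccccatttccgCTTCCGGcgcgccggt
Uqcrh chr4:116075071-116075320, minus strand: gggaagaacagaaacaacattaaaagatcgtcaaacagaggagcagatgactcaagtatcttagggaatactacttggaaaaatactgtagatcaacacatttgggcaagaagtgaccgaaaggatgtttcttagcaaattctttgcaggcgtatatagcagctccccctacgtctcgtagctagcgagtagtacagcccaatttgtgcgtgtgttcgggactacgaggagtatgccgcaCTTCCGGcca
Ndufa11 chr17:56717512-56717761, plus strand: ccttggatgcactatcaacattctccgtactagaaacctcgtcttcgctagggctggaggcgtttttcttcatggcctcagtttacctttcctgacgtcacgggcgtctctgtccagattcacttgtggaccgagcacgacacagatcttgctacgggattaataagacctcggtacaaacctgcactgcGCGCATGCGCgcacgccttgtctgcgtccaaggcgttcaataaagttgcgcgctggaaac
Ndufb2 chr6:39592315-39592564, plus strand: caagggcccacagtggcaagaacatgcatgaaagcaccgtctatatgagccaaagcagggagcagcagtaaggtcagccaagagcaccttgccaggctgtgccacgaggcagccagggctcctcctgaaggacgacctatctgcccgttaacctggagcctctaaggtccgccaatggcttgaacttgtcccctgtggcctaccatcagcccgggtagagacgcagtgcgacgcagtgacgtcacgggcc
The stretch GCGCATGCGC in the Cox6a1 and Ndufa11 promoters is the full palindrome of nuclear respiratory factor 1, so each holds the core on both strands, overlapping. Cox6a1 also has an ETS match, as do Ndufaf1 and Uqcrh, and in Ndufb2 none of the 3 motifs lies in this window. Of the 89 members, 73 had a promoter in the RefSeq table. The palindrome was found in 6.85% of these and in 0.781% of all 27025 promoters of that length. Its core was found in 12.3% of the members' promoters and 2.32% of all. ETS matches were in 16.4% of the members' promoters and 7.05% of all, and YY1 matches in 0 of 73 and 1.59% of all. Sp1 boxes (GGGCGG) were in 39.7% and 32.9%, CCAAT in 43.8% and 34.5%, the estrogen-related receptor motif (TNAAGGTCA) in 1.37% and 1.14%, and TATAAA in 9.59% and 13%. These shares are descriptions of the sequences, and a match is not a binding site.

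The deposited values are log2 signals, 1 per probe set and array, and ran from 2.97 to 14.4. The array medians over genes lay between 8.16 and 8.20. The Il1a signal was 4.97 ± 0.0749 in the Il1a KO and 5.10 ± 0.209 in the Il1b KO, against 5.87 ± 0.232 in wild type (SD, n = 4 each). It fell in both knockouts (log2 differences -0.90 and -0.77, limma adjusted p = 0.00372 and 0.0039) and the Il1a KO did not pass against the Il1b KO (-0.13, limma adjusted p = 0.849), so it is no check specific to the Il1a KO. The Il1b signal was 8.08 ± 0.0946 in the Il1a KO and 6.42 ± 0.183 in the Il1b KO, against 7.83 ± 0.161 in wild type (SD, n = 4 each), and it fell in the Il1b KO alone (log2 difference -1.42, limma adjusted p = 2.64e-06), while the Il1a KO differed by 0.25 (limma adjusted p = 0.465). Il1a KO replicate 1 stood apart in sex-linked genes, with Xist at 6.47 against 11.9 to 12.2 in the other arrays and Eif2s3y at 9.15 against 3.65 to 3.94. The number of arrays limits the precision. The median SD within groups was 0.0605 for the respiratory chain genes, against 0.0841 over all genes. Of the 89 members, 63 were among the brightest 25% of genes, and their SD was not set against genes of like level. The least steady members were Ndufs6 (0.149), Uqcr11 (0.141) and Ndufb3 (0.136).

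In the Il1a KO, respiratory chain transcripts were slightly above wild type in most cases, and no single gene passed the test. The log2 difference was above 0 for 76 of 89 members (85.4%), against 50.2% of all genes. The median difference was 0.04 on the log2 scale, against 0.0003 for all genes. Differences of single members ran from 0.925-fold to 1.11-fold. The 95% intervals of all 89 members lay between -0.29 and 0.29 on the log2 scale. Adjusted p was the Benjamini-Hochberg value over all 19938 genes from limma, with 0.05 as the threshold. At this threshold 0 of 89 members passed, and 0.171% of all genes did. The smallest adjusted p of a member was 0.18 (limma, Ndufa11). At an unadjusted p under 0.05 there were 11 members (12.4%), all of them higher in the Il1a KO, beside 8.32% of all genes in either direction and 4.54% in that direction. No overlap between the 2 sets of 4 arrays was seen for 9 members (10.1%), again all higher in the Il1a KO, beside 5.06% of all genes and 2.87% in that direction. Those 9 were Ndufa11, Ndufb9, Ndufc2, Ndufs3, Uqcr10, Uqcrh, Cox7a2l, Cox7b and Atp5o.

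In the Il1b KO the same small displacement was seen, with a few larger single-gene differences. The log2 difference from wild type was above 0 for 75 of 89 members (84.3%), against 52% of all genes, and for 64 of 89 after a second quantile normalization of the values. The median difference was 0.06, against 0.004 for all genes, and it was 0.036 after that step. Single members ran from 0.887-fold to 1.18-fold, and their 95% intervals lay between -0.32 and 0.39 on the log2 scale. At the threshold 0 of 89 members passed in limma, beside 0.813% of all genes, and the smallest adjusted p was 0.0606 (Ndufa11). At an unadjusted p under 0.05 there were 27 members (30.3%), beside 13% of all genes. Of the 27, 26 were higher in the Il1b KO, beside 8.42% of all genes, and 1, Ndufaf1, was lower, beside 4.58%. No overlap between the arrays was seen for 15 members (16.9%), beside 7% of all genes. Ndufaf1 was lower without overlap (1.94% of all genes were), and 14 members were higher, beside 5.06% of all genes: Ndufa6, Ndufa11, Ndufb2, Ndufb8, Ndufb9, Ndufc2, Ndufaf3, Ndufaf5, Ndufaf7, Uqcrh, Cox6a1, Cox7a2l, Atp5g1 and Atp5o. Both knockouts were set against the same 4 wild-type arrays, so their counts are not independent of each other.

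**Figure D1:**
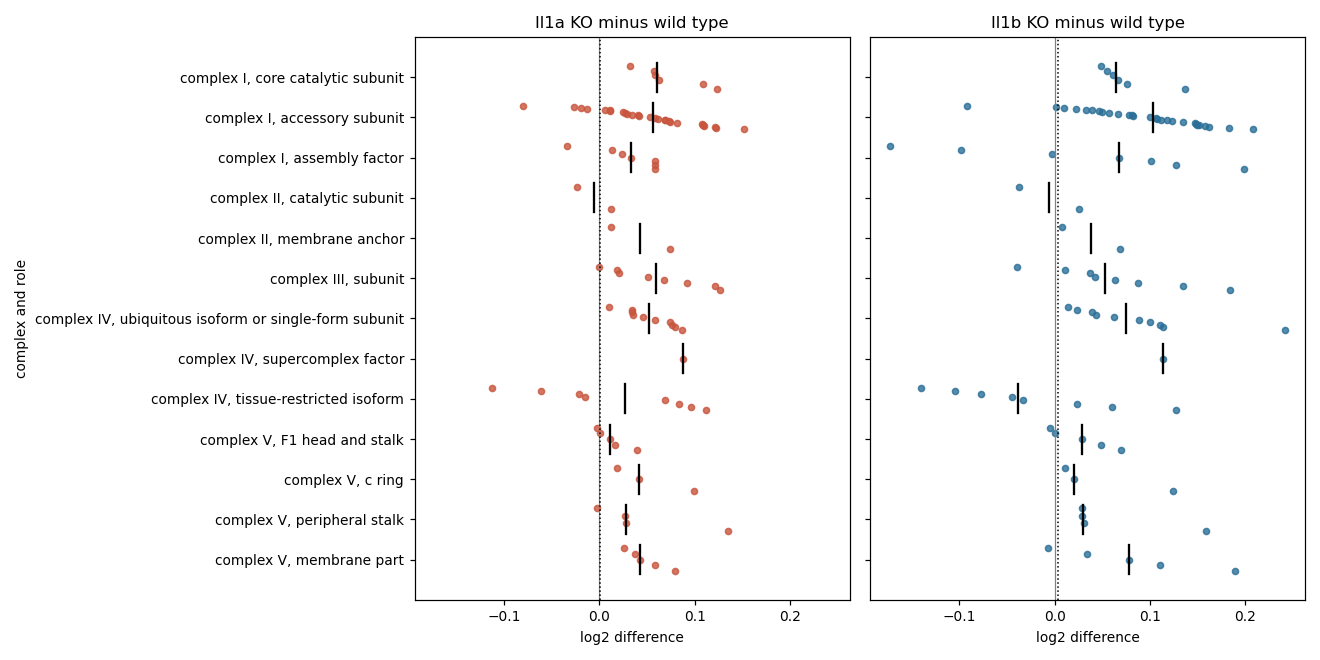
Log2 difference of each of the 89 respiratory chain genes (points) in the Il1a KO (left) and the Il1b KO (right) minus wild type, by complex and role. Vertical bars are medians of each role, the solid line is 0 and the dotted line is the median of all genes tested; most points lie right of 0, and the tissue-restricted complex IV isoforms lie on both sides.

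The direct comparison of the knockouts gave the single call. Ndufaf1 was higher in the Il1a KO than in the Il1b KO, and 1 of 89 members (1.12%) passed in limma, beside 0.652% of all genes in either direction and 0.346% in this one. The Ndufaf1 protein is an assembly factor that stabilises the membrane arm of complex I while it is built, together with Ecsit, Acad9 and Tmem126b. Its log2 values were 9.72, 9.66, 9.68 and 9.77 in the Il1a KO. They were 9.48, 9.41, 9.54 and 9.47 in the Il1b KO, and 9.59, 9.71, 9.69 and 9.60 in wild type. Every Il1b KO array lay below every array of the other groups, whereas the Il1a KO and wild type overlapped. The means were 9.70 ± 0.0460 in the Il1a KO, 9.47 ± 0.0529 in the Il1b KO and 9.65 ± 0.0596 in wild type (SD, n = 4 each). The Il1a KO exceeded the Il1b KO by 0.23 on the log2 scale, or 1.17-fold (SE 0.0434, 95% interval 0.14 to 0.33, limma adjusted p = 0.0262). Against wild type, the Il1b KO differed by -0.17 (95% interval -0.27 to -0.08, limma adjusted p = 0.101). The Il1a KO differed from wild type by 0.06 (limma adjusted p = 0.827).

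The Ndufaf1 call depended on single knockout arrays. The size of the difference stayed between 0.21 and 0.25 when any 1 array was left out, but the call was lost in 7 of the 8 fits without a knockout array, in which fewer arrays also entered the contrast. It held in the fits without a wild-type array, which leave the contrast itself unchanged. Without Il1a KO replicates 1 to 4 the limma adjusted p was 0.0872, 0.055, 0.0656 and 0.12, and without Il1b KO replicates 1, 2 and 4 it was 0.0703, 0.0874 and 0.0913. The partners of the protein had small differences. Ecsit, which also takes part in Toll-like receptor and interleukin-1 signalling, differed between the Il1a KO and the Il1b KO by -0.03 (limma adjusted p = 0.941). Acad9 differed by -0.03 (limma adjusted p = 0.894) and Tmem126b by -0.02 (limma adjusted p = 0.966).

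With Ndufaf1 included, 31 of 89 members (34.8%) were higher in the Il1a KO than in the Il1b KO, beside 47.3% of all genes. The median difference was -0.01, and this sign depended on the scaling: 48 of 89 were higher after a second quantile normalization (median 0.0025) and 46 of 89 with each array centred on its median (median 0.001). An unadjusted p under 0.05 was found for 7 members (7.87%, Ndufaf1 included), beside 7.79% of all genes. The arrays of the knockouts did not overlap for 6 (6.74%), beside 7.24% of all genes. Besides Ndufaf1 these were Ndufaf3, Ndufaf5, Ndufb7, Cox6a1 and Atp5g1, all lower in the Il1a KO (4.69% of all genes were). Both shares are close to those of all genes.

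**Figure D2:**
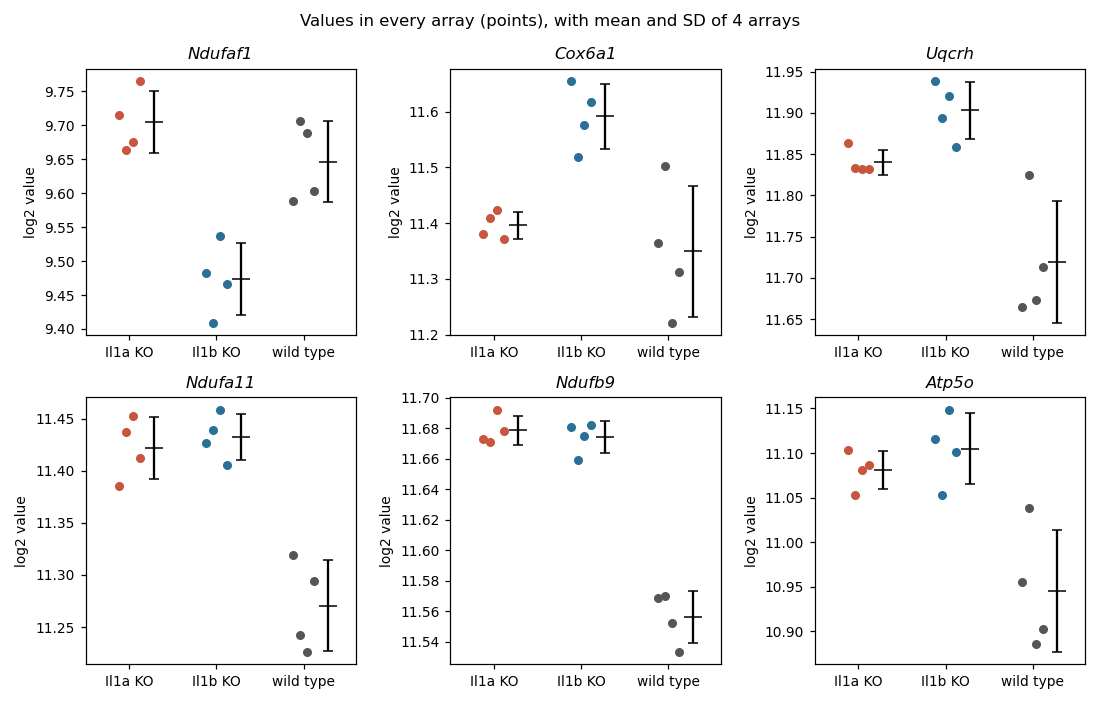
Log2 values of 6 members in every array (points), with the mean and SD of the 4 arrays of each group (bars); each panel has its own axis, which does not start at 0. Ndufaf1 has all Il1b KO arrays lowest, Cox6a1 has all Il1b KO arrays highest, and in Uqcrh, Ndufa11, Ndufb9 and Atp5o both knockouts lie above wild type.

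Complex I holds the catalytic core, which binds NADH and carries electrons through iron-sulfur clusters, and a shell of accessory subunits. The 6 core genes measured (Ndufs1, Ndufs3, Ndufs7, Ndufs8, Ndufv1 and Ndufv2) were all above 0 in both knockouts, with medians of 0.06 in the Il1a KO and 0.06 in the Il1b KO, and 0 of 6 passed. Ndufs3 ranged from 10.93 to 10.98 in the Il1a KO and from 10.85 to 10.96 in the Il1b KO, against 10.81 to 10.90 in wild type. Only the Il1a KO was clear of the wild-type arrays (log2 difference 0.11, limma adjusted p = 0.406). Ndufs8, which carries iron-sulfur clusters, had log2 differences of 0.12 in the Il1a KO (limma adjusted p = 0.525) and 0.14 in the Il1b KO (limma adjusted p = 0.279). Ndufs1, the largest core subunit, had 0.03 and 0.07, and Ndufv1, which binds NADH, had 0.06 in each knockout.

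Of the 28 accessory subunit genes, 24 in the Il1a KO and 27 in the Il1b KO were above 0, with medians of 0.06 and 0.10. Ndufa11, a membrane-arm subunit, had 11.39, 11.44, 11.45 and 11.41 in the Il1a KO and 11.43, 11.44, 11.46 and 11.41 in the Il1b KO, against 11.32, 11.24, 11.23 and 11.29 in wild type. All 8 knockout arrays lay above all 4 wild-type arrays. The log2 difference was 0.15 in the Il1a KO (95% interval 0.07 to 0.23, limma adjusted p = 0.18) and 0.16 in the Il1b KO (95% interval 0.08 to 0.24, limma adjusted p = 0.0606). The second probe set of the gene gave 0.10 and 0.08. Ndufb9, an accessory subunit of the membrane arm, showed tight groups: 11.67, 11.67, 11.69 and 11.68 in the Il1a KO and 11.68, 11.66, 11.68 and 11.68 in the Il1b KO, against 11.57, 11.57, 11.55 and 11.53 in wild type. No knockout array overlapped with wild type, and the log2 difference was 0.12 in each knockout (limma adjusted p = 0.212 and 0.122).

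Ndufb2, also of the membrane arm, overlapped between the knockouts. Its values were 8.92, 8.79, 8.82 and 8.81 in the Il1a KO and 8.93, 8.98, 8.91 and 8.94 in the Il1b KO, against 8.81, 8.80, 8.69 and 8.73 in wild type. The Il1b KO arrays were clear of wild type, and the Il1a KO arrays were not. The log2 difference was 0.08 in the Il1a KO and 0.18 in the Il1b KO (95% interval 0.09 to 0.28, limma adjusted p = 0.0737), and the Il1a KO minus the Il1b KO was -0.10 (limma adjusted p = 0.585). Ndufb3, among the least steady members, had the largest accessory difference in the Il1b KO (0.21, limma adjusted p = 0.323), with arrays from 8.49 to 8.69 in the Il1b KO and from 8.16 to 8.57 in wild type. Ndufa5 had 0.12 in the Il1a KO and 0.16 in the Il1b KO, and Ndufa2 had 0.03 and 0.15, neither gene passing. Ndufb6 was the accessory gene farthest below 0, at -0.08 in the Il1a KO and -0.09 in the Il1b KO (limma adjusted p = 0.879 and 0.635). Its wild-type arrays ran from 11.65 to 11.98 and covered those of the Il1a KO (11.68 to 11.78).

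Of the 7 assembly factors, 6 were above 0 in the Il1a KO and 4 in the Il1b KO, where Ndufaf6 was close to 0. Ndufaf5, which modifies the core subunit Ndufs7 during assembly, had 8.39, 8.25, 8.17 and 8.31 in the Il1a KO and 8.54, 8.52, 8.47 and 8.53 in the Il1b KO, against 8.16, 8.42, 8.42 and 8.25 in wild type. All Il1b KO arrays were above all others, the reverse of the order seen for Ndufaf1. The log2 difference from wild type was -0.03 in the Il1a KO and 0.20 in the Il1b KO (limma adjusted p = 0.204), and the Il1a KO minus the Il1b KO was -0.23 (limma adjusted p = 0.203). Ndufaf2 had 0.01 in the Il1a KO and -0.10 in the Il1b KO, and Ndufaf6 had 0.02 and -0.003. Ndufaf3, Ndufaf4 and Ndufaf7 had 0.10, 0.07 and 0.13 in the Il1b KO, with 0.03, 0.06 and 0.06 in the Il1a KO.

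**Figure D3:**
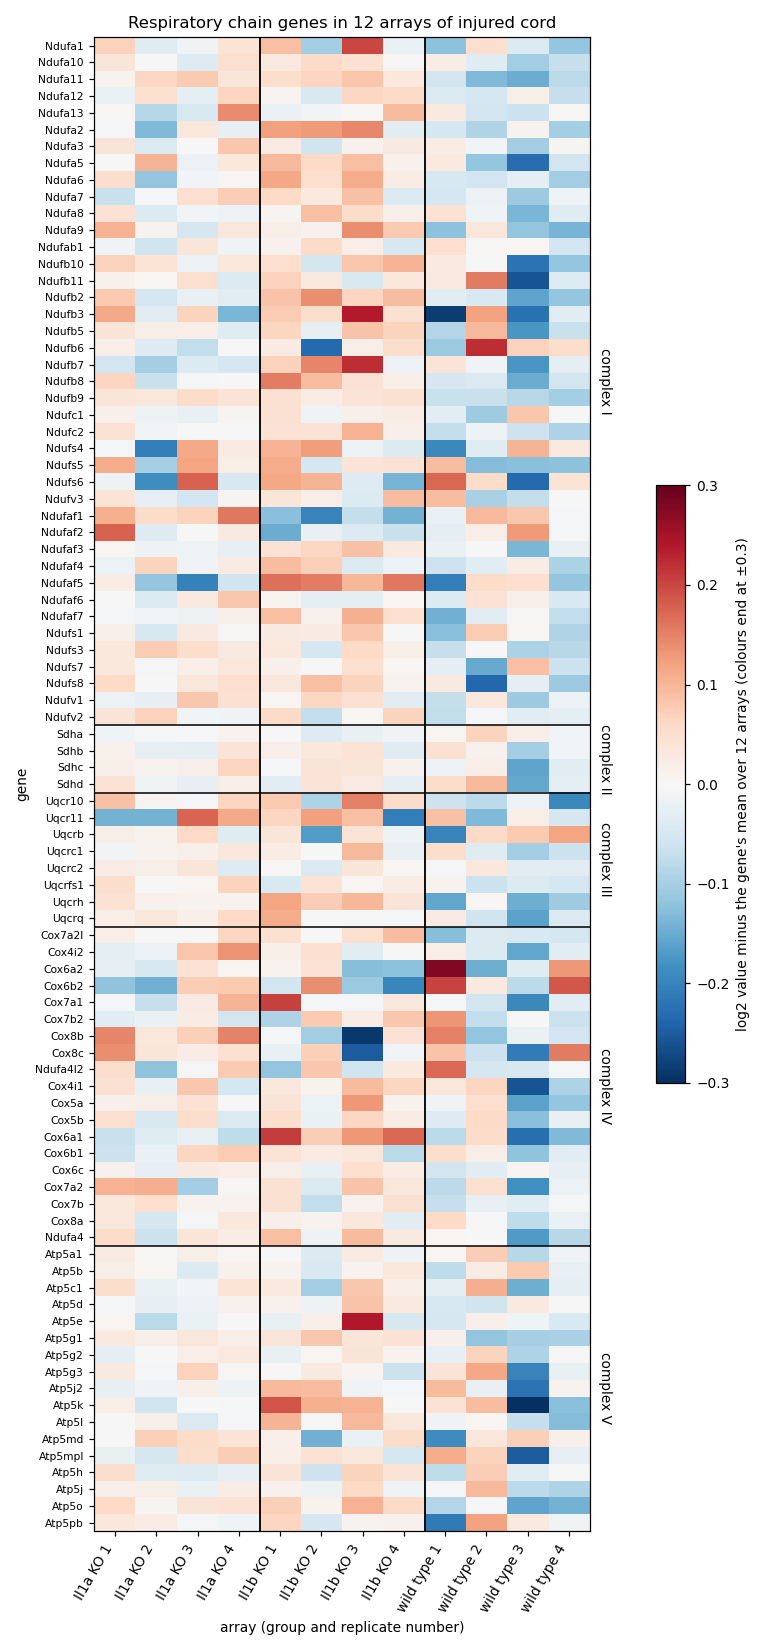
Log2 value of each respiratory chain gene minus its own mean over the 12 arrays, with genes in rows grouped by complex and arrays in columns by group and replicate; colours end at ±0.3. Wild type replicates 3 and 4 are below the gene mean for most members, and Il1b KO replicates 1 and 3 above it.

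Complex II, which also serves the citric acid cycle, showed the smallest medians of the 5 complexes, at 0.01 in the Il1a KO and 0.02 in the Il1b KO. Sdha, the flavoprotein subunit, had -0.02 in the Il1a KO and -0.04 in the Il1b KO, with arrays from 11.72 to 11.75 and from 11.70 to 11.74 in the knockouts, against 11.73 to 11.80 in wild type. Sdhb, the iron-sulfur subunit, had 0.01 and 0.03. The membrane anchors Sdhc (0.07 in each knockout) and Sdhd (0.01 in each knockout) completed the complex. None of the 4 passed, with limma adjusted p of 0.519 or more.

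In complex III, 7 of 8 genes were above 0 in each knockout, with medians of 0.06 in the Il1a KO and 0.05 in the Il1b KO, and 0 of 8 passed. Uqcrh, the acidic hinge subunit next to cytochrome c1, had 11.86, 11.83, 11.83 and 11.83 in the Il1a KO and 11.94, 11.89, 11.92 and 11.86 in the Il1b KO, against 11.66, 11.82, 11.67 and 11.71 in wild type. Both knockouts were clear of wild type, whose replicate 2 came close to the Il1a KO. The log2 difference was 0.12 in the Il1a KO (limma adjusted p = 0.397) and 0.18 in the Il1b KO (95% interval 0.10 to 0.27, limma adjusted p = 0.0635). Uqcr10, a small subunit, had 0.13 and 0.14. The core proteins Uqcrc1 (0.05 and 0.06) and Uqcrc2 (0.02 and 0.01) and the Rieske iron-sulfur protein Uqcrfs1 (0.07 and 0.04) had small differences in the Il1a KO and the Il1b KO.

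Complex IV includes ubiquitous and tissue-restricted isoforms. All 10 genes of the ubiquitous isoforms and single-form subunits were above 0 in both knockouts, with medians of 0.05 in the Il1a KO and 0.08 in the Il1b KO. Of the 8 tissue-restricted isoforms, counted with the hypoxia-induced Ndufa4l2, 4 were above 0 in the Il1a KO and 3 in the Il1b KO, with medians of 0.03 and -0.04. The difference between the classes was not tested, and the values of single genes overlapped. The classes also differed in signal level: all 10 ubiquitous genes and 0 of the 8 tissue-restricted ones were among the brightest 25% of all genes. Of all genes in the second dimmest 25%, where 5 of the tissue-restricted genes lie, 47.4% were above 0 in the Il1a KO and 40% in the Il1b KO. None of the 19 genes passed against wild type. Cox6a1, the ubiquitous form of a small regulatory subunit, had the largest log2 difference of any member in any comparison. Its values were 11.38, 11.41, 11.42 and 11.37 in the Il1a KO. They were 11.66, 11.52, 11.58 and 11.62 in the Il1b KO, and 11.36, 11.50, 11.22 and 11.31 in wild type. All Il1b KO arrays were highest, with wild type replicate 2 just below the lowest of them. The Il1b KO minus wild type was 0.24, or 1.18-fold (SE 0.0544, 95% interval 0.12 to 0.36, limma adjusted p = 0.0645). The Il1a KO minus the Il1b KO was -0.20 (95% interval -0.31 to -0.08, limma adjusted p = 0.229), and the Il1a KO minus wild type was 0.05 (limma adjusted p = 0.92).

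Its muscle form Cox6a2 went the other way, with -0.06 in the Il1a KO and -0.10 in the Il1b KO, but its wild-type arrays spread from 8.07 to 8.49 and covered those of both knockouts. Cox4i1, Cox5a and Cox5b, the larger nuclear subunits, had 0.08, 0.08 and 0.03 in the Il1a KO and 0.11, 0.10 and 0.06 in the Il1b KO. Cox4i2, the lung-enriched partner of Cox4i1, had 0.10 in the Il1a KO and 0.06 in the Il1b KO. Cox7a2 had 0.09 in each knockout, and its muscle form Cox7a1 had 0.08 in the Il1a KO and 0.13 in the Il1b KO (limma adjusted p = 0.382). Cox7a2l was clear of wild type in both knockouts, with arrays from 8.97 to 9.03 in the Il1a KO and from 8.97 to 9.06 in the Il1b KO, against 8.84 to 8.93 in wild type (log2 differences 0.09 and 0.11, limma adjusted p = 0.536 and 0.21). Cox8a had 0.01 in each knockout, whereas the muscle form Cox8b had 0.11 in the Il1a KO and -0.08 in the Il1b KO.

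Cox6b1, Cox6c and Cox7b had differences of 0.03, 0.03 and 0.06 in the Il1a KO and 0.02, 0.04 and 0.04 in the Il1b KO. Ndufa4, which binds complex IV, had 0.07 in the Il1a KO and 0.11 in the Il1b KO, and its hypoxia-induced relative Ndufa4l2 had -0.02 and -0.03. The testis forms Cox6b2, Cox7b2 and Cox8c had -0.11, -0.02 and 0.07 in the Il1a KO and -0.14, 0.02 and -0.04 in the Il1b KO. No adjusted p in these 8 genes was below 0.359 against wild type (limma).

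In complex V, 15 of 17 genes were above 0 in the Il1a KO and 14 of 17 in the Il1b KO, with medians of 0.03 in each, and 0 of 17 passed. The main catalytic subunits were near 0: Atp5b, the beta subunit, had -0.0027 in the Il1a KO and -0.0001 in the Il1b KO, and Atp5a1, the alpha subunit, had 0.02 and -0.0045. The peripheral stalk gene Atp5o encodes the subunit that confers oligomycin sensitivity. It had 11.10, 11.05, 11.08 and 11.09 in the Il1a KO and 11.12, 11.05, 11.15 and 11.10 in the Il1b KO, against 10.96, 11.04, 10.89 and 10.90 in wild type. Neither knockout overlapped with wild type, though wild type replicate 2 was close to the lowest knockout arrays. The log2 difference was 0.14 in the Il1a KO (limma adjusted p = 0.328) and 0.16 in the Il1b KO (limma adjusted p = 0.115). Atp5g1, which encodes the proton-carrying c subunit, had 0.10 in the Il1a KO and 0.12 in the Il1b KO, while the genes of the same mature subunit, Atp5g2 and Atp5g3, had 0.02 and 0.04 in the Il1a KO and 0.02 and 0.01 in the Il1b KO. Among the membrane subunits, Atp5k had 0.08 and 0.19 with wild-type arrays spread from 8.48 to 8.95, and Atp5l had 0.04 and 0.11. Atp5l was measured by 6 probe sets, all of them above 0 in both knockouts.

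Averaged over the 89 members, single arrays deviated little from the 12-array means. Deviations were 0.02, -0.02, 0.01 and 0.02 in the Il1a KO and 0.04, 0.01, 0.04 and 0.01 in the Il1b KO, against -0.02, -0.003, -0.08 and -0.04 in wild type. Il1a KO replicate 2 lay among the wild-type arrays, and wild type replicate 3 was farthest down. The number of members above their own mean was 62, 35, 51 and 66 in the Il1a KO arrays and 75, 54, 71 and 58 in the Il1b KO arrays, against 37, 43, 23 and 12 in wild type. Without wild type replicate 3, 66 of 89 members were above 0 in the Il1a KO (median 0.04) and 67 of 89 in the Il1b KO (median 0.05). Without Il1a KO replicate 1, which stood apart in Xist and Eif2s3y, 71 of 89 were above 0 in the Il1a KO (median 0.05).

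Cell type markers differed between the same arrays. All 11 measured mature oligodendrocyte markers were above 0 in each knockout (medians 0.17 in the Il1a KO and 0.12 in the Il1b KO), with array means from 11.58 to 11.73 in the Il1a KO and from 11.49 to 11.63 in the Il1b KO, against 11.40 to 11.52 in wild type. All 19 skeletal muscle markers were below 0 in each knockout (medians -0.12 and -0.17), with array means from 6.93 to 6.99 and from 6.83 to 6.96, against 6.92 to 7.30 in wild type, where replicates 1 and 3 were highest. Neutrophil markers were below 0 in 12 of 12 cases in the Il1a KO and 10 of 12 in the Il1b KO (medians -0.35 and -0.27), with array means from 7.65 to 7.99 and from 7.53 to 8.22, against 8.03 to 8.40 in wild type. Ly6g fell in the Il1b KO (log2 difference -0.55, limma adjusted p = 0.00869) and was lower in the Il1a KO without passing (-0.45, limma adjusted p = 0.098). Neuron markers (14 measured) had 9 above 0 in each knockout, with medians of 0.025 in the Il1a KO and 0.04 in the Il1b KO. Astrocyte markers (9 measured) had 6 and 7 above 0 (medians 0.07 and 0.05), and monocyte and macrophage markers (10 measured) had 2 and 6 (medians -0.10 and 0.03). Brown fat markers (6 measured) had 1 above 0 in each (medians -0.08 and -0.10). The muscle markers all lay in the dimmest and second dimmest 25% of genes by mean level. In those classes 39.3% and 47.4% of all genes were above 0 in the Il1a KO, and 26.6% and 40% in the Il1b KO. All measured oligodendrocyte markers but Opalin were in the brightest 25%. There 59.4% of all genes were above 0 in the Il1a KO and 72.1% in the Il1b KO. The part of signal level in the marker values was not tested, nor that of these cell types in the respiratory chain values.

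**Figure D4:**
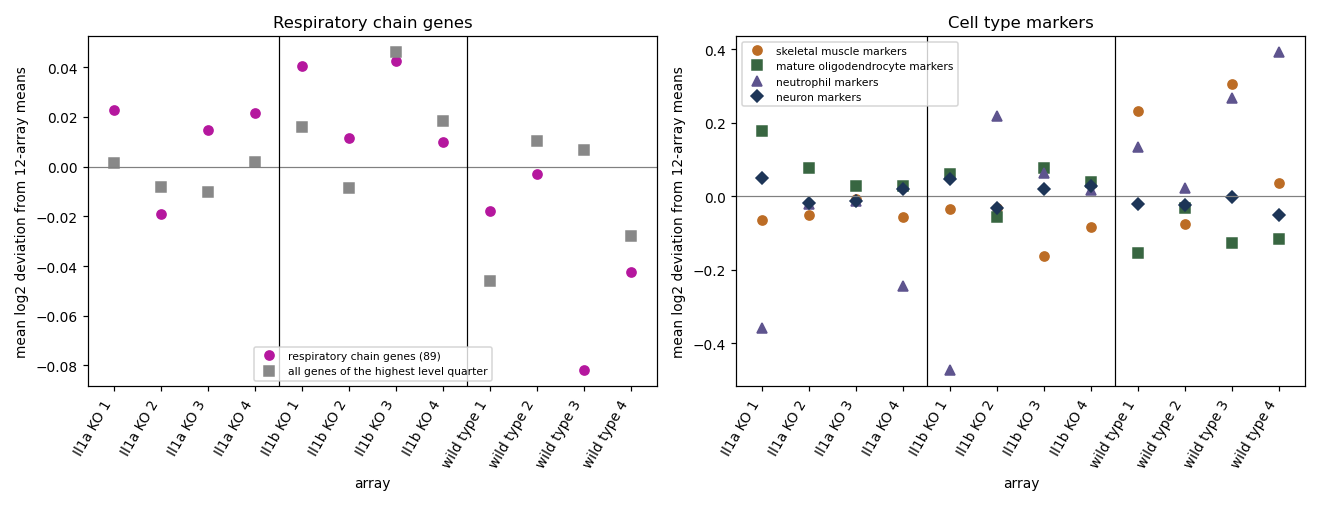
Mean log2 deviation from the 12-array means in each array, for the 89 respiratory chain genes and for all genes of the brightest 25% (left), and for 4 marker lists (right). The respiratory chain mean is lowest in wild type replicate 3 (-0.08) and highest in Il1b KO replicates 1 and 3 (0.04).

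Signal level moved with the differences as well. Of the 89 members, 63 belonged to the brightest 25% of all genes. In that class 59.4% of all genes were above 0 in the Il1a KO and 72.1% in the Il1b KO, with medians of 0.01 and 0.03. The members of the same class were above 0 in 57 of 63 cases (90.5%, median 0.04) in the Il1a KO and in 56 of 63 cases (88.9%, median 0.06) in the Il1b KO. An unadjusted p under 0.05 in either direction was found there for 9 of 63 members and 602 of 4985 genes in the Il1a KO. In the Il1b KO it was found for 17 of 63 and 846 of 4985. In the second brightest 25% the counts were 2 of 19 members and 543 of 4984 genes in the Il1a KO. They were 10 of 19 and 797 of 4984 in the Il1b KO. In the dimmest 25%, with 1 member, 39.3% of all genes were above 0 in the Il1a KO and 26.6% in the Il1b KO. Between the knockouts, 33.3% of the members and 32.3% of all genes in the brightest 25% were higher in the Il1a KO. The part of signal level in the members' values was not tested.

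**Figure D5:**
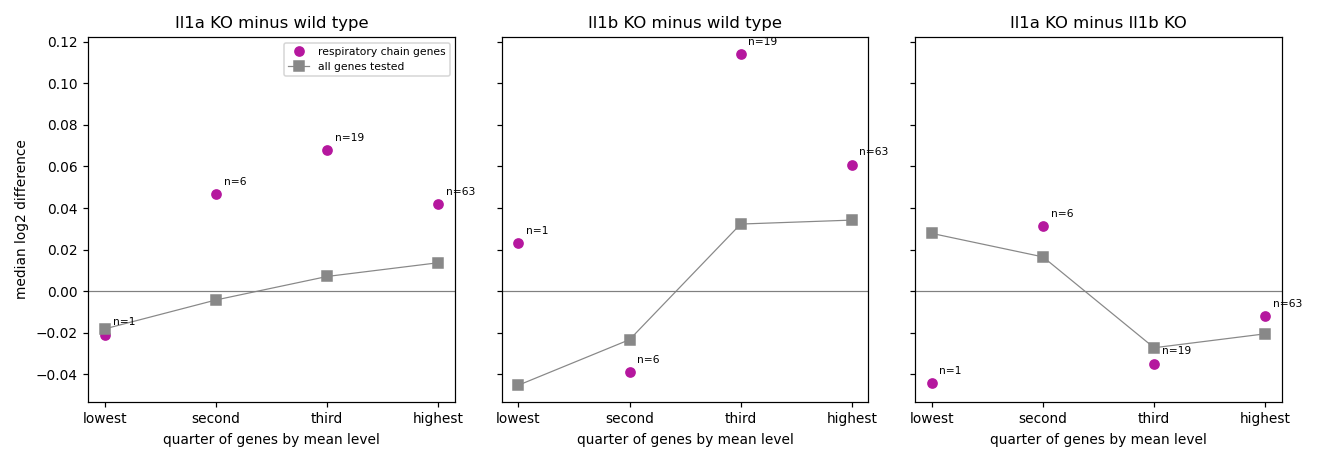
Median log2 difference of the respiratory chain genes (circles, with their number) and of all genes tested (squares) in 4 classes of 25% of genes each by mean level, for the Il1a KO minus wild type, the Il1b KO minus wild type and the Il1a KO minus the Il1b KO. Among all genes the knockout medians are higher in the brighter classes, and the 63 members of the brightest class have medians of 0.04, 0.06 and -0.01; the 2 dimmest classes hold 1 and 6 members.

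Position along the chromosome was described by gene order alone, from RefSeq genes of GRCm38.p6. Ndufaf1 lies on chromosome 2, as do Il1a and Il1b, with 126 measured genes between Ndufaf1 and Il1a and 127 between Ndufaf1 and Il1b. Among the 10 measured genes on each side of Ndufaf1, 3 passed in the Il1b KO against wild type, all of them higher: the phospholipase gene Pla2g4e (1.54), the receptor kinase gene Tyro3 (0.48) and the GTPase gene Rhov (0.22, each a log2 difference). Ndufaf1 itself was lower there without passing (-0.17). Pla2g4e and Tyro3 also differed between the knockouts (-1.55 and -0.37 for the Il1a KO minus the Il1b KO). In the Il1a KO against wild type, 0 of these 20 neighbours passed. Ndufaf5 is on chromosome 2 too, with 81 measured genes between it and Il1b, and 0 of its 20 neighbours passed in any comparison. The other members on that chromosome (Ndufa8, Ndufs3, Cox4i2, Atp5c1, Atp5e and Atp5g3) were all above 0 in the Il1b KO.

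Cox6a1 lies on chromosome 5, and 3 of its 20 measured neighbours passed in the Il1b KO against wild type. Coq5, an enzyme of ubiquinone synthesis, rose (log2 difference 0.33, limma adjusted p = 0.0162), as did Gcn1, an activator of the integrated stress response (0.22, limma adjusted p = 0.00869), while the ribosomal protein gene Rplp0 fell (-0.24, limma adjusted p = 0.00917). Over all 89 members, 11 (12.4%) had at least 1 passing neighbour within this distance in the Il1b KO, beside 11.8% of all genes with a position, and 3 passing neighbours was the most for any member. In the Il1a KO 3 members (3.37%) had such a neighbour, beside 3.19% of all genes. Between the knockouts 6 members (6.74%) had one, beside 8.5% of all genes. Ndufb8, on chromosome 19, was near Pkd2l1, which rose in both knockouts (0.69 in the Il1a KO and 0.51 in the Il1b KO), and itself had 0.07 in the Il1a KO and 0.15 in the Il1b KO. The part of chromosomal position in these values was not tested.

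Other genes of mitochondrial energy metabolism were summarised in 4 lists. Of 34 listed partners and assembly factors outside the symbol rule, 32 were measured. These had medians of 0.03 in the Il1a KO and 0.04 in the Il1b KO, with 24 and 25 above 0. Cox18, a membrane insertase that places Cox2 in the inner membrane, was the only gene of the 4 lists that passed. It averaged 10.9 ± 0.0962 in the Il1b KO against 10.5 ± 0.0555 in wild type (SD, n = 4 each), a rise of 0.40, or 1.32-fold (limma adjusted p = 0.00108). The Il1a KO, at 10.5 ± 0.0386 (SD, n = 4), was lower than the Il1b KO (log2 difference -0.43, limma adjusted p = 0.000576) and differed from wild type by -0.04 (limma adjusted p = 0.936). Cox18 lies on chromosome 5, as Cox6a1 does, but was not among the 20 measured neighbours of Cox6a1.

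Of the citric acid cycle list 15 of 16 genes were measured and 0 passed, with medians of 0.02 in the Il1a KO and 0.04 in the Il1b KO and 13 of 15 above 0 in each. Its smallest p belonged to Pdhb in the Il1a KO (0.13, limma adjusted p = 0.482) and Suclg1 in the Il1b KO (0.14, limma adjusted p = 0.151). All 16 regulators of mitochondrial biogenesis were measured and 0 passed, with medians of 0.03 and 0.04. Tfb1m, which methylates mitochondrial ribosomal RNA, had 0.15 in the Il1a KO (limma adjusted p = 0.628) and 0.21 in the Il1b KO (limma adjusted p = 0.225). Of the glycolysis list 14 of 17 genes were measured and 0 passed, with medians of -0.004 in the Il1a KO and 0.01 in the Il1b KO and 6 and 8 of 14 above 0. Ldha, the lactate dehydrogenase subunit favoured in glycolytic tissue, had -0.13 in the Il1a KO (limma adjusted p = 0.361).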

How the data were processed

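Arrays of 12 injured mouse spinal cords, 4 each from the Il1a KO, the Il1b KO and wild type, were analysed. The authors deposited log2 values, 1 for each probe set on each array. The submitters' processing notes name the tools GCOS 1.4, RMA, limma and Partek but no role or order, and that the values are RMA summaries was inferred from this list and the near-equal array medians. Such summaries are scaled between arrays, so a shift in total RNA would not show, and differences of dim genes are compressed.

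Of 35557 probe sets, 21789 had exactly 1 symbol in the platform annotation, and the set with the highest mean stood for each of 19938 genes. The 89 members had 114 probe sets, of which 17 genes had several, and all 89 matched RefSeq. Among these 17 genes, the probe sets differed in sign for 2 in the Il1a KO against wild type (Atp5h and Atp5pb). They did so for 2 in the Il1b KO against wild type (Atp5md and Ndufab1). Between the knockouts they did so for 5 (Atp5h, Cox6c, Ndufa11, Ndufab1 and Ndufc1). Left out were 6 probe sets that list several symbols (for Cox7c, Ndufs5, Ndufb4 and Ndufb4b). Ndufb1, Ndufaf8, Cox7c, Ndufb4, Ndufb4b and Ndufb4c were not analysed here. Cross-hybridisation with processed copies was not tested. The platform annotation's genome build is not stated in the labels or files used.

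Group means were fitted to the 12 arrays together with limma 3.58.1 in R 4.3.3 (moderated statistics without a trend, two-sided), with Benjamini-Hochberg adjustment over all genes of a contrast. The model was tested on simulated data with planted changes. A minimum recovery was required only for planted changes larger than any difference of a member. The recovery of smaller changes is not reported here. Labels name no animals, so p measures the spread between these arrays. Differences are knockout minus wild type, or Il1a KO minus Il1b KO. Members named with values were those that passed, the 6 largest differences in each direction, the 5 brightest and 5 dimmest, and a fixed set of isoform, succinate dehydrogenase and catalytic genes. Others named were chosen after their values were seen. Members and lists were chosen with earlier results of these data known. Alternatives were 9 other settings and leaving out each of the 12 arrays.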

Additional observations from a re-analysis of the deposited data

Results flagged for a closer look

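Single arrays stood far from the other 3 of their group in 7 of 156 sets of 4 arrays examined (52 named members in 3 groups), where chance gives about 1 in 20. Sdhc was 11.1 in Il1a KO replicate 4, against 11.04 to 11.05 in the other 3 Il1a KO arrays. Uqcrh was 11.86 in Il1a KO replicate 1, against 11.83 in the other 3. Among Il1b KO arrays, Cox6b1 was 11.8 in replicate 4 (others 11.90 to 11.92), Ndufa2 was 10.2 in replicate 4 (others 10.37 to 10.39), Ndufb3 was 8.69 in replicate 3 (others 8.49 to 8.52) and Ndufb6 was 11.5 in replicate 2 (others 11.78 to 11.81). Cox7a2l was 8.84 in wild type replicate 1, against 8.92 to 8.93 in the other 3 wild-type arrays. The effects of the knockouts on Ndufaf1 differed by 0.23 on the log2 scale, by the direct contrast of the Il1a KO with the Il1b KO (limma adjusted p = 0.0262).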

How the results depend on the processing

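In the Il1a KO against wild type the count of members that passed was 0 in every fit but 2: an intensity trend in the variance gave 2 (Ndufa11 and Ndufb9) and array weights gave 3 (also Atp5o). In the Il1b KO against wild type it was 1 after a second quantile normalization (Ndufaf1), 8 with a trend, 16 with array weights and 4 without the dimmest 25% of genes (Cox6a1, Ndufa11, Ndufb2 and Uqcrh), and 0 to 3 with 1 array left out, with 3 without wild type replicate 2 (Atp5o, Cox6a1 and Uqcrh). Between the knockouts it was 3 with array weights (Cox6a1, Ndufaf1 and Ndufaf5), 0 with the replicate block (Ndufaf1 adjusted p = 0.1) and 0 to 1 with 1 array left out. The block changed no other count of members. Deviations of same-numbered arrays correlated between -0.37 and 0.44 over 12 pairs. Pairs with different numbers reached -0.51 and 0.57 (wild type replicate 1 with Il1b KO replicates 3 and 2). These values show no pairing by number but cannot exclude it. Over all genes, array weights raised the counts to 306 in the Il1a KO and 1145 in the Il1b KO against wild type and to 244 between the knockouts, against 34, 162 and 130. With a trend they were 72, 303 and 153, and with 2 groups in the fit 15, 85 and 147. In the Il1b KO against wild type, 167 of 19938 genes passed after a second quantile normalization. Without the dimmest 25% of genes 215 of 14953 did, and without wild type replicate 2 177 of 19938. Between the knockouts, 105 of 19938 passed with the replicate block. The median difference of the members after a second quantile normalization was 0.0357 in the Il1b KO and 0.0025 between the knockouts, where the number above 0 was 48. With 1 array left out, the medians ranged from 0.0387 to 0.0623 in the Il1a KO, from 0.0489 to 0.0748 in the Il1b KO and from -0.0218 to -0.0023 between the knockouts. The numbers of members above 0, settings added after the values were seen, then ranged from 66 to 81, from 67 to 77 and from 23 to 42. The tally of single genes covered only the members named by rule in each contrast, not all members. Of their 2664 values under the alternatives, 2627 kept their direction where called, their side of the threshold and moved by less than 1 SD. Of the rest, 23 came to pass, 8 no longer passed, 6 moved by more and 0 reversed. The cause of these shifts was not tested. Signal was not set against background, so how far dim members such as Cox7b2 were measured above it is unknown.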
